A study of Mus musculus with 9 samples.

Results

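The genes that carry cholesterol out of brain cells and turn it over were examined in frontal cortex RNA of mice that lack the long noncoding RNA Neat1. The set held 10 genes of the 43629 in the deposited count table. The genes were taken by name. It held the lipid carrier Apoe, the efflux transporters Abca1, Abcg1 and Abcg4, the cholesterol 24-hydroxylase Cyp46a1, the oxysterol receptors Nr1h2 and Nr1h3, the endocytic receptor Lrp1, and Npc1 and Npc2, which move cholesterol out of late endosomes and lysosomes. RNA-seq of rRNA-depleted libraries covered 5 wild type (WT) mice and 4 Neat1-/- mice. The ages were 2, 2, 3, 4 and 4 months for WT replicates 1 to 5, and 3, 3, 4 and 2 months for Neat1-/- replicates 1, 3, 4 and 5. All were C57BL/6 females. In the Neat1-/- allele, lacZ and polyadenylation signals sit directly after the transcription start of Neat1, in every cell of the animal. Neither the labels nor the methods say whether mice were littermates.

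Brain cholesterol is made within the brain, since lipoproteins of the blood do not pass the blood-brain barrier. Astrocytes load it through ABC transporters onto particles that carry ApoE, neurons take these up through lipoprotein receptors, and neurons dispose of the surplus by converting it to 24S-hydroxycholesterol, which leaves the brain. Oxysterols of this kind activate the liver X receptors (LXRs, encoded by Nr1h2 and Nr1h3), which bind DNA as partners of retinoid X receptors and switch on Abca1, Abcg1, Apoe and Srebf1.

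Total counts were between 51276067 and 64648856 per library. Levels are given as TMM-normalized CPM, which are counts scaled to a library of 1e+06 after correction for composition. Neat1 itself was at 60.8 to 119.9 CPM in WT mice and at 7.11 to 9.72 CPM in Neat1-/- mice, giving a log2 fold change (log2FC, Neat1-/- over WT) of -3.33, with an SE of 0.19. By edgeR's quasi-likelihood fit the adjusted p of that change was 1.27e-06. WT replicates 3 and 4 lay apart from the rest along the first principal component of log2 CPM, with scores of 47.7 and 42.1, against -17.8 to -4.80 in the other libraries. Values without these libraries are given beside log2FCs of the 10 genes and named pathway genes that they move by over 1.5 times or whose sign they turn. Marker results are of all 9 libraries only. Neuronal markers, among them Snap25 and Slc17a7, summed to between 7511 and 7967 CPM over 10 genes in every library. They mark neurons rather than cortex, and no marker of a brain region was examined. Unadjusted p values were under 0.05 for 1 neuronal marker, which was lower, for 1 of 8 endothelial markers, which was higher, and for 0 of 7 choroid plexus or ependymal and 0 of 8 meningeal markers. All 8 listed choroid plexus or ependymal markers summed to 120 CPM in WT replicate 3 and to 24.9 to 29.4 CPM in the other WT mice. In Neat1-/- mice they summed to 19.0 to 30.4 CPM. Meningeal markers summed to 193 CPM in WT replicate 4 and to 501 to 722 CPM in the other WT mice. In Neat1-/- mice they summed to 480 to 655 CPM. The part of these tissues in other differences was not tested.

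None of the 10 genes differed between genotypes at an adjusted p under 0.05, by edgeR, DESeq2 or limma. Of the 19753 genes that edgeR tested, 14 did, which is 0.0709%. Apoe and Abca1 had the largest log2FCs of the set, 0.15 each, and were the 2 members higher in Neat1-/- mice at an unadjusted p under 0.05 in each of the 3 tools. No member was lower at that threshold. The background at that threshold was 4.27% of tested genes higher and 4.03% lower. All 10 passed the filter on low counts. The median log2FC was 0.017 over the 10 genes and -0.00023 over all genes tested.

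**Figure D1:**
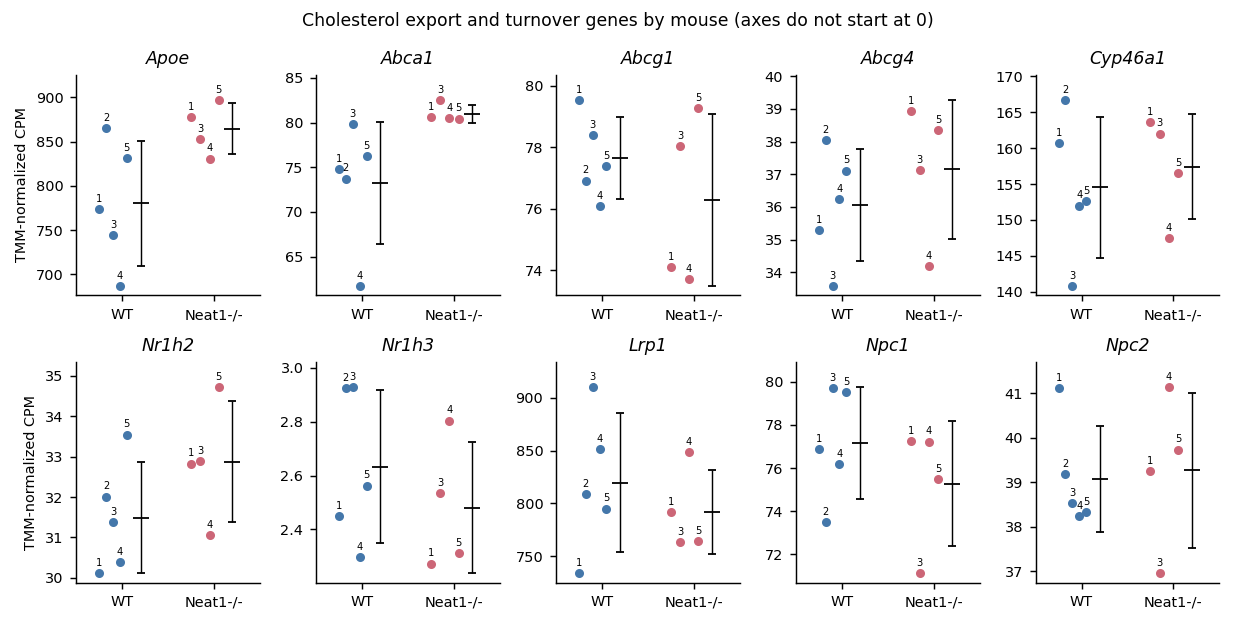
TMM-normalized CPM of each gene in each mouse; points are mice with their replicate numbers, horizontal bars give the mean and error bars the SD over 5 WT or 4 Neat1-/- mice, and axes do not start at 0. The Neat1-/- mice lie above all WT mice for Abca1, at 80.4 to 82.5 CPM, and the genotypes overlap for the other 9 genes.

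Apoe, the main lipid carrier secreted by astrocytes, lies on chromosome 7 (19696109 to 19699188 in GRCm38, the build of all positions here). In WT mice it was at 773, 865, 745, 687 and 831 CPM in replicates 1 to 5. In Neat1-/- mice it was at 877, 853, 831 and 897 CPM in replicates 1, 3, 4 and 5. The WT mice spread far more widely than the Neat1-/- mice, and WT replicate 2 was higher than Neat1-/- replicates 3 and 4, so that the genotypes overlapped. The means were 780.1 ± 70.3 CPM (SD, n = 5) and 864 ± 28.8 CPM (SD, n = 4). The difference of 10.8% had a 95% interval of 2.77% to 19.5%. The log2FC was 0.15 (SE 0.050, unadjusted p = 0.0115 and adjusted p = 0.543 in edgeR). An exact permutation test (two-sided) on these CPM, which does not use age, gave p = 0.0794. Its smallest possible p is 0.00794 with 5 mice against 4. WT replicates 4 and 3 held the lowest values, and without both the log2FC was 0.073 (unadjusted p = 0.0765 from edgeR). In limma on the deposited log2 values it was 0.079 (unadjusted p = 0.0621).

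Apoe is also made by microglia, and markers of these cells were examined beside it. Unadjusted edgeR p values under 0.05 put 5 of 10 microglial markers higher in Neat1-/- mice and 0 lower, and the list had a median log2FC of 0.089. The complement genes C1qa, C1qb and C1qc and the lipid receptor Trem2, named after their values were seen, were among the 5. The summed level of the 10 markers was 327 to 379 CPM in WT mice and 357 to 381 CPM in Neat1-/- mice, which overlapped (exact permutation p = 0.262, two-sided). WT replicates 4 and 3 had the lowest sums, 327 and 329.8 CPM, and were also the lowest for Apoe. The sums of WT replicates 1, 2 and 5 were 361, 379 and 363 CPM, within the range of the Neat1-/- mice. The 10 astrocyte markers summed to 5500, 5428, 5145, 4798 and 5126 CPM in WT replicates 1 to 5, with WT replicate 4 the lowest. In Neat1-/- mice they summed to 5327 to 5354 CPM. Of the astrocyte markers, 1 had an unadjusted p under 0.05, on the higher side. No marker of either list was at 0 in all libraries. Their part in the Apoe difference was not tested, and in bulk tissue more cells of a type and more RNA per cell cannot be told apart.

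Abca1, which passes cholesterol and phospholipid to lipid-poor apolipoproteins, lies on chromosome 4 (53030787 to 53159895). Its level in WT replicates 1 to 5 was 74.7, 73.7, 79.8, 61.7 and 76.2 CPM. Its level in Neat1-/- replicates 1, 3, 4 and 5 was 80.6, 82.5, 80.5 and 80.4 CPM. Every Neat1-/- mouse was above every WT mouse, by a margin of less than 1 CPM over WT replicate 3, while WT replicate 4 stood well below the other mice. Ranges of the genotypes did not overlap for 2.67% of all genes tested, and for 1 of the 10 genes here. The difference of 10.7% had a 95% interval of 1.62% to 20.6%. The log2FC was 0.15 (SE 0.057, unadjusted p = 0.0236 and adjusted p = 0.580 in edgeR), and the exact permutation test on its CPM gave p = 0.0159. Without WT replicate 4 the log2FC was 0.080 (unadjusted p = 0.0488 from edgeR). Without WT replicates 3 and 4 it was 0.11 (unadjusted p = 0.00531). The unadjusted p was between 0.0524 and 0.0764 without any 1 of WT replicates 1 and 2 and Neat1-/- replicates 1, 3 and 4, 0.0557 with age as a factor, and 0.120 in limma on the deposited log2 values.

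The promoter of Abca1 is shown because this gene and Srebf1, another LXR target, both had an unadjusted p under 0.05 on the higher side with all 9 libraries, a call that several alternatives lost for each. Of other LXR targets, Apoe was also higher at that threshold. Abcg1, Mylip and Lpcat3 did not reach it, with log2FCs of -0.027, -0.042 and 0.10. LXRs bind direct repeats of half-sites related to AGGTCA, spaced as in the pattern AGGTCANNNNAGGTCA. That pattern was searched on both strands in the RefSeq windows (GRCm38.p6) from 250 bases before to 50 bases after each transcription start. Windows were at hand for 7 of the 10 genes, namely Apoe, Abca1, Cyp46a1, Nr1h2, Nr1h3, Lrp1 and Npc2. The pattern was in 0.0152% of 32851 windows and in none of the 10 windows of these genes. A looser form, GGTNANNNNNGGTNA, was written with the well-known LXR element of Abca1 in mind, so its presence in that gene is no finding. Srebf1 was picked by its p in these data, so a match there is no finding either, and LXR activity was not tested. It was in 0.718% of all windows and in 1 of the 10. Below are the Abca1 window on the minus strand (chr4:53159846-53160145), with the match to the looser form in capitals, and the match itself, read 5′ to 3′ on the strand that carries the repeat, in Abca1 (chr4:53159948-53159962, 67 to 53 bases before the start) and in Srebf1 (chr11:60210639-60210653, 182 to 168 bases before one of its starts).
Abca1 window: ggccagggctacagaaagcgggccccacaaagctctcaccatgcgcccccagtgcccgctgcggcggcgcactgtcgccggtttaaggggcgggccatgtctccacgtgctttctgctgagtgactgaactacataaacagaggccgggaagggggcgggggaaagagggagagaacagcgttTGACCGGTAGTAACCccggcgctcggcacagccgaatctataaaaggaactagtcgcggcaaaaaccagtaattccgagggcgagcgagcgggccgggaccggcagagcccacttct
Abca1 match: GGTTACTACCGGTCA
Srebf1 match: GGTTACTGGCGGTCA

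Abcg1 and Abcg4 encode ABCG half-transporters that move cholesterol to particles already carrying lipid, Abcg1 in many tissues and Abcg4 mainly in brain. Abcg1 (chromosome 17, 31057675 to 31117988) was at 76.1 to 79.5 CPM in WT mice and at 73.7 to 79.3 CPM in Neat1-/- mice. It had a narrow spread, with a coefficient of variation of 1.72% among WT mice. Its log2FC was -0.027 (SE 0.031, edgeR adjusted p = 0.825), and the 95% interval ran from -6.34% to 2.92%. Abcg4 (chromosome 9, 44273188 to 44288615) was at 36.1 ± 1.72 CPM among WT mice (SD, n = 5) against 37.1 ± 2.11 CPM among Neat1-/- mice (SD, n = 4), with a 95% interval of -4.27% to 10.7%. Its log2FC was 0.042, and 0.019 without WT replicates 3 and 4. For both genes the genotypes overlapped.

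Cyp46a1, the neuronal enzyme that makes 24S-hydroxycholesterol, lies on chromosome 12 (108334381 to 108362234). It was at 155 ± 9.82 CPM among WT mice (SD, n = 5) against 157 ± 7.30 CPM among Neat1-/- mice (SD, n = 4). The lowest value, 141 CPM, and the highest, 167 CPM, were both in WT mice, in replicates 3 and 2. The log2FC was 0.027 (SE 0.043, edgeR adjusted p = 0.879), with a 95% interval of -4.55% to 8.73%. The difference was -0.0099 without WT replicates 3 and 4, the opposite sign.

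Of the LXRs, Nr1h2 (LXR beta, chromosome 7, 44549616 to 44553951) was the abundant one and Nr1h3 (LXR alpha, chromosome 2, 91184061 to 91202834) the scarce one. Per kilobase of exon, Nr1h2 was 9.04 ± 0.882 times the level of Nr1h3 in WT mice (SD, n = 5) and 10.03 ± 1.32 times in Neat1-/- mice (SD, n = 4). Nr1h2 was at 30.1 to 33.5 CPM in WT and at 31.1 to 34.7 CPM in Neat1-/- mice, with a log2FC of 0.061 (SE 0.047, edgeR adjusted p = 0.728). Nr1h3 had only 121 to 182 counts per library and stood at 2.63 ± 0.285 CPM among WT mice (SD, n = 5) against 2.48 ± 0.245 CPM among Neat1-/- mice (SD, n = 4). Its 95% interval, -22.9% to 15.2%, was the widest of the 10 genes and held the difference seen for Apoe. The interval of Nr1h2, -2.72% to 11.9%, also held that difference. The exons of Nr1h3 share 34 of 2515 bp with Gm13783, a transcript of the same strand.

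Lrp1, a large endocytic receptor that takes up ApoE particles, lies on chromosome 10 (127538161 to 127621148). Its level was 819.7 ± 65.5 CPM among WT mice (SD, n = 5) against 792 ± 39.7 CPM among Neat1-/- mice (SD, n = 4). WT mice covered the whole range, from 734 CPM in replicate 1 to 910 CPM in replicate 3. The log2FC was -0.050 (SE 0.048, edgeR adjusted p = 0.782), with a 95% interval of -10.1% to 3.78%, and 0.0051 without WT replicates 3 and 4.

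Npc1 and Npc2 hand cholesterol from the lumen to the membrane of late endosomes and lysosomes, and loss of either causes Niemann-Pick type C disease. Npc1 (chromosome 18, 12189692 to 12236400) was at 73.5 to 79.7 CPM in WT and at 71.1 to 77.3 CPM in Neat1-/- mice, with a 95% interval of -7.60% to 3.02%. Npc2 (chromosome 12, 84754562 to 84773152) was at 38.2 to 41.1 CPM and at 37.0 to 41.1 CPM, with a 95% interval of -5.55% to 6.97%. The difference of Npc2, a log2FC of 0.0074 (SE 0.041), had no stable sign, being reversed in 9 of 20 alternatives. Of the exons of Npc1, 511 of 11317 bp overlap Rmc1 on the other strand. No source says whether counting used the strand.

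**Figure D2:**
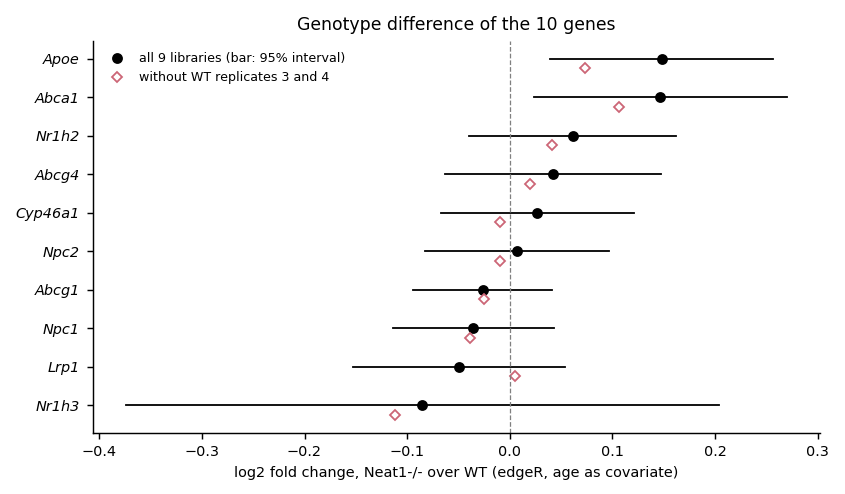
log2FC (Neat1-/- over WT) of each gene from edgeR with age as a covariate; filled points are the fit of all 9 libraries with bars for the 95% interval, and open diamonds the fit without WT replicates 3 and 4. The intervals of Apoe and Abca1 lie above 0 and those of the other 8 genes include 0, and the open diamond of Apoe is at 0.073.

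Levels were compared between genes per kilobase of exon. Apoe stood far above the rest at 365 ± 32.9 CPM per kb (SD, n = 5) in WT mice and 404 ± 13.5 CPM per kb (SD, n = 4) in Neat1-/- mice. Cyp46a1, at 47.0 ± 2.99 and 47.9 ± 2.22 CPM per kb, and Lrp1, at 46.3 ± 3.70 and 44.7 ± 2.24 CPM per kb, came next and did not differ beyond their spread over the 9 libraries. A middle tier held 6 genes between 5.95 and 10.9 CPM per kb in every library. In it, the range of Abcg1 overlapped that of Nr1h2, Nr1h2 lay above all values of Abca1, and from Abca1 through Npc2 and Abcg4 to Npc1 each gene overlapped the next. Nr1h3 was the lowest, at 1.05 ± 0.113 and 0.986 ± 0.0972 CPM per kb, below every value of Npc1. The ratio of these levels between Apoe and Cyp46a1 was 6.95 to 8.37 in WT mice and 8.09 to 8.81 in Neat1-/- mice. The ratio of Abcg1 to Abcg4 was 1.54 ± 0.0928 (SD, n = 5) and 1.47 ± 0.0777 (SD, n = 4), and that of Npc2 to Npc1 was 1.06 ± 0.0537 and 1.09 ± 0.0219.

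**Figure D3:**
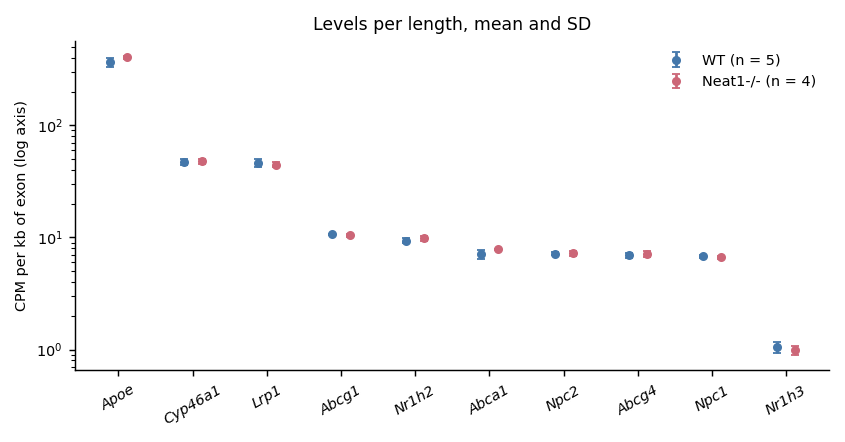
Level of each gene as CPM per kilobase of exon on a log axis, as the mean and SD of 5 WT and 4 Neat1-/- mice. Apoe stands at the top, at 365 CPM per kb in WT mice, and Nr1h3 at the bottom, at 1.05 CPM per kb.

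Levels of the 10 genes were set against each other across the 9 mice. Of 45 pairs, 4 had an unadjusted p under 0.05 for Pearson's r of log2 CPM, 3 of them positive, and 0 passed an adjusted p of 0.05 for Pearson's r or Spearman's rho (exact permutation tests over pairings, two-sided). Apoe and Nr1h2 had r = 0.760 (exact p = 0.0164, adjusted p = 0.251) and rho = 0.767 (exact p = 0.0214, adjusted p = 0.321), and r was 0.799 without the 2 libraries farthest from the median of Apoe, which were WT replicates 3 and 4. Abcg4 and Cyp46a1 had r = 0.786 (exact p = 0.0124, adjusted p = 0.251) and rho = 0.783 (exact p = 0.0172, adjusted p = 0.321), but r was 0.354 without the 2 libraries farthest from the median of Abcg4, and the relation rests on those. Cyp46a1 and Lrp1 had r = -0.763 (exact p = 0.0167, adjusted p = 0.251) and rho = -0.617 (exact p = 0.0857, adjusted p = 0.643), with r of -0.752 without the 2 farthest libraries and -0.460 without WT replicates 3 and 4. Apoe and Abca1 had r = 0.722 (exact p = 0.0340, adjusted p = 0.382) and rho = 0.483 (exact p = 0.194, adjusted p = 0.703), and r was 0.460 without WT replicates 3 and 4, on which the relation rests. By rank, Apoe and Abcg4 had the highest rho of the 45 pairs, 0.867 (exact p = 0.00451, adjusted p = 0.203), with r = 0.618 (exact p = 0.0743, adjusted p = 0.478), and r was 0.753 without WT replicates 3 and 4. These values pool both genotypes, since 5 and 4 mice are too few for a value within each.

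Beyond the 10 genes, 46 other genes of cholesterol transport and turnover were followed in 7 roles, and 45 were tested. At an adjusted p under 0.05 edgeR passed 0, whereas DESeq2 passed Stard4 and Abca8a among the genes named here. An unadjusted p under 0.05 was reached by 4 on the higher side and 5 on the lower, or 8.89% and 11.1% of those tested, against 4.27% and 4.03% of all genes. The median log2FC was 0.0020.

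Stard4, a soluble sterol carrier, was at 28.6, 25.8, 26.6, 30.6 and 26.1 CPM in WT replicates 1 to 5. It was at 33.7, 36.3, 32.4 and 31.7 CPM in Neat1-/- replicates 1, 3, 4 and 5, so that every Neat1-/- mouse was above every WT mouse. Its log2FC was 0.28 (SE 0.059, adjusted p = 0.221 in edgeR and 0.00557 in DESeq2). Without WT replicates 3 and 4 it was 0.32. Sorl1, a sorting receptor that binds ApoE, was at 691 ± 27.7 CPM among WT mice (SD, n = 5) against 637 ± 28.2 CPM among Neat1-/- mice (SD, n = 4) (log2FC -0.12, edgeR adjusted p = 0.538). Stard3, which tethers late endosomes to the endoplasmic reticulum, had a log2FC of -0.11 (edgeR adjusted p = 0.567), and its unadjusted p was 0.0681 without Neat1-/- replicate 3 and 0.0510 with the replicate number as a block. The other 7 transfer genes did not reach an unadjusted p under 0.05.

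Among the ABC transporters of the A family, Abca8a and Abca8b went opposite ways. Abca8a was at 7.45, 6.75, 10.045, 10.044 and 12.3 CPM in WT replicates 1 to 5 and at 6.19 to 7.38 CPM in Neat1-/- mice, a log2FC of -0.43 (SE 0.10, adjusted p = 0.326 in edgeR and 0.0245 in DESeq2). Abca8b was at 40.1 to 42.9 CPM in WT and at 44.6 to 46.1 CPM in Neat1-/- mice, a log2FC of 0.13 (SE 0.036, edgeR adjusted p = 0.430). The low WT values of Abca8a, in replicates 1 and 2, were the 2-month-old mice, and the genotypes overlapped, whereas those of Abca8b did not. These genes are close copies, and reads that fit both cannot be assigned by gene counting, so the split between them is uncertain. Of 10 markers of mature oligodendrocytes, 4 had an unadjusted p under 0.05, on the lower side, and 6 did not reach it, with a median log2FC of -0.27 over the list. Their summed level was 2197 to 3416 CPM in WT and 1879.5 to 2879 CPM in Neat1-/- mice, so that the genotypes overlapped (exact permutation p = 0.143, two-sided). The sums of WT replicates 1 to 5 were 3416, 2197, 2913, 2763 and 3025 CPM. WT replicate 2 was the lowest WT mouse in both the sum and Abca8a. WT replicate 1 had the highest sum but the second-lowest Abca8a of the WT mice. WT replicates 3 and 4 were level in Abca8a, and WT replicate 5 was above them in both. Among Neat1-/- mice, replicate 1 was the highest in both. Neat1-/- replicate 5 had a sum of 2719 CPM but the lowest Abca8a, 6.19 CPM. No marker of the list was at 0 in all libraries, and their part in the Abca8a difference was not tested.

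Of the LXR partners and targets, Srebf1 was at 46.2 ± 4.11 CPM among WT mice (SD, n = 5) against 51.2 ± 2.03 CPM among Neat1-/- mice (SD, n = 4). Its log2FC of 0.15 had an SE of 0.057 (unadjusted p = 0.0230 and adjusted p = 0.580 in edgeR). The unadjusted p was 0.0655 to 0.100 without any 1 of WT replicates 1 and 4 and Neat1-/- replicates 1 and 5, 0.0548 with age as a factor, and 0.0596 in limma on the deposited log2 values. Of the oxysterol genes, only Ch25h, which makes 25-hydroxycholesterol, reached an unadjusted p under 0.05. It had 5 to 38 counts per library, and its log2FC of -1.10 had an SE of 0.42 (edgeR adjusted p = 0.570). Its unadjusted p was 0.0544 to 0.0647 without any 1 of WT replicates 2 and 5 and Neat1-/- replicate 3, and 0.114 with the replicate number as a block. Among the lipoproteins, Clu, another astrocytic apolipoprotein, was at 471 ± 23.4 and 494 ± 16.1 CPM (log2FC 0.071, edgeR adjusted p = 0.631), and its log2FC was 0.028 without WT replicates 3 and 4. Apod was at 89.3 ± 14.8 and 89.6 ± 4.87 CPM, a log2FC of 0.0050, and of -0.097 without those libraries. Of the ester genes, Soat1 had a log2FC of -0.037 and Nceh1 one of -0.026, or -0.018 and -0.043 without WT replicates 3 and 4, and Soat2 was too low to be tested.

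**Figure D4:**
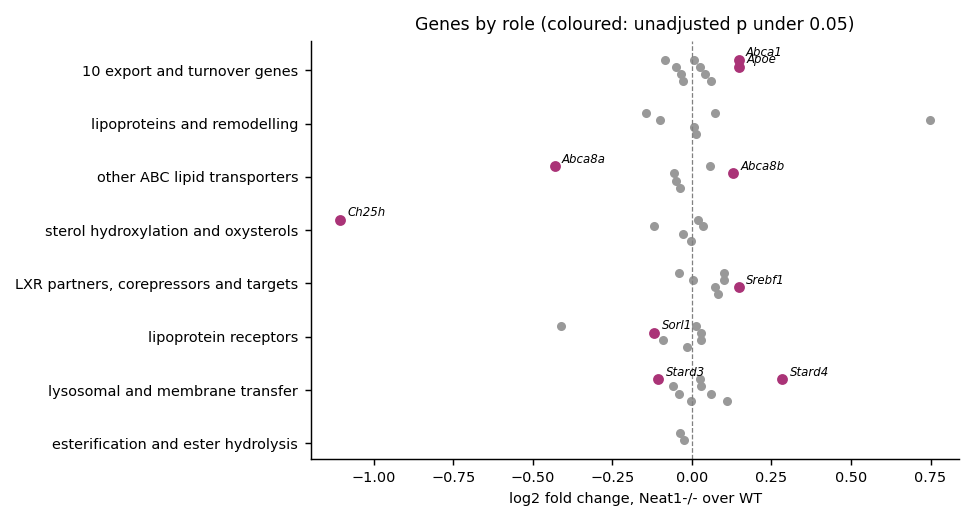
log2FC (Neat1-/- over WT, edgeR) of the 10 genes and of other pathway genes reported here, by role; each point is 1 gene, and coloured, named points had an unadjusted p under 0.05. Apoe and Abca1 stand at 0.15, Stard4 at 0.28 and Ch25h at -1.10.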

How the data were processed

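Raw counts of Ensembl genes were deposited, and beside them normalized log2 values of 13456 genes. STAR 2.5.0 and HTSeq 0.8.0 stand in the processing notes of the submitters, whereas the supplementary methods name other tools, and both give mm10. The authors made the log2 values by TMM scaling and removal of covariates. Here the raw counts were used, and the log2 values only as an alternative. Of the counted IDs, 97.5% had a GENCODE vM21 name, and 0 rows named no gene and 0 columns belonged to other samples. All genes were fitted together with edgeR 4.0.16 (R 4.3.3), using filterByExpr, TMM, age in months and genotype, with Benjamini-Hochberg adjustment over 19753 genes and a threshold of 0.05. The common biological coefficient of variation was 0.0922. The fit was tested on simulated counts. Log2 CPM used a prior count of 2. Intervals are 95% from the edgeR standard error. Alternatives used DESeq2 1.42.0 and limma 3.58.1. The rest was done in Python 3.11.15 with SciPy 1.17.1, pandas 2.3.3, Matplotlib 3.10.9 and NumPy 2.4.6.

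The 10 genes, the pathway and marker lists and the tests were chosen with earlier results of these data known. Beside the 10 genes, the text names in each role up to 3 genes with the smallest unadjusted p under 0.05, or else the 2 with the highest level. Each library is 1 mouse. Motifs were searched in RefSeq windows. Some genes of the lists are counted but not reported by name here.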

Additional observations from a re-analysis of the deposited data

Results flagged for a closer look

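Among the 20 sets of values (10 genes in 2 genotypes), 1 held a mouse far from the others of its genotype by the gap between neighbours against the whole range, and chance gives about 1 in 20. It was Abca1 in Neat1-/- replicate 3, at 82.5 CPM against 80.4 to 80.6 CPM in the other Neat1-/- mice. The gap was 0.925 of the range of the Neat1-/- mice. That range was narrow, with a coefficient of variation of 1.24% against 9.36% in WT mice.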

How the results depend on the processing

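No member passed an adjusted p of 0.05 in any of 19 alternatives on the counts, and none was lower at an unadjusted p under 0.05. The members higher at that threshold were 2, and 1 to 2 with 1 library left out. With age as a factor 1 remained, Apoe, and without WT replicates 3 and 4 again 1, Abca1. The other pathway genes lower at that threshold were 5, and 2 to 6 with 1 library left out, the 2 being without Neat1-/- replicate 3. The genes at an adjusted p under 0.05 were 14 of all tested, but 75 with DESeq2, 22 with limma, 76 with no filter, and 8 (without Neat1-/- replicate 1) to 30 (without WT replicate 5) with 1 library left out. They were 9 without WT replicate 1. Stard4 and Abca8a passed an adjusted p of 0.05 with DESeq2, with no filter and in the deposited log2 values. Abca8b passed it in the deposited log2 values. The limma fit of those values had genotype alone and adjusted over 13456 genes. It took no account of the covariates already removed from them, so its p values may be too small. The cause of these differences between fits was not tested.

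Apoe and Abca1 kept a positive log2 fold change in all 20 alternatives, from 0.073 to 0.20 and from 0.080 to 0.17, as did Nr1h2 and Abcg4. Signs turned only for differences near 0. Without WT replicates 3 and 4 the log2 fold change was -0.0099 for Cyp46a1, 0.0051 for Lrp1, -0.0097 for Npc2 and -0.097 for Apod. In the deposited log2 values it was -0.0072 for Cyp46a1, 0.0026 for Lrp1 and -0.093 for Apod. For Npc2 it was -0.0016 with limma, -0.0034 by library size only, -0.0034 with a filter at 1 CPM in 4 libraries and -0.00092 with the replicate block. For Apod it was -0.0055 by library size only, -0.0055 with that filter and -0.015 with age as a factor. With 1 library left out, the ranges were -0.0093 to 0.049 for Cyp46a1, -0.033 to 0.033 for Npc2 and -0.096 to 0.11 for Apod.

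The replicate numbers did not pair the mice. Deviations from the genotype means correlated at 0.044, -0.045, 0.14 and -0.077 for numbers 1, 3, 4 and 5, and only number 4 matched its own best. With the number as a block, 3 other pathway genes were lower at an unadjusted p under 0.05, and the count of called genes was 12.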

Other observations

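Among the genes tested, those whose log2 CPM followed each of 4 members most closely over the 9 libraries were searched for, and are given as a description, since the best among 19753 genes is close by selection. The gene most like Apoe was C1qb, a complement gene of microglia, with a Pearson r of 0.973, a Spearman rho of 1 and an r of 0.892 without WT replicates 3 and 4. The gene most like Nr1h2 was Bok, a member of the BCL2 family, with an r of 0.971, and of 0.968 without those libraries. The gene most like Abca1 was 2010015M23Rik, with an r of 0.965, and of 0.892 without those libraries. The gene most like Lrp1 was Cep112it, with an r of 0.955, and of 0.926 without them. Library, depth and dissection are shared by the values of each mouse.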
